A study of Mus musculus with 30 samples.

Results

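RNA abundance was compared between a *Nanos2* TAG/TAG spermatogonial stem cell (SSC) line and a *Nanos2* TAG/+ SSC line, gene by gene, over all genes that reached an FPKM (a read count divided by transcript length and library depth) of at least 5 in either line. This rule took 9624 of the 13904 genes in the RNA-seq table. The genes nearest the limit were *Cspg5* and *Zxda* just inside it, with 5.0002 and 5.0014 FPKM in the TAG/+ line, and *Yipf6* and *Adgrv1* just outside it, with 4.9989 and 4.9969 FPKM in the TAG/TAG line. Each genotype was represented by 1 line and 1 library, line 5 for TAG/TAG and line 4 for TAG/+, and the FPKM values were scaled to 11738620 and 10908790 reads. All values below are therefore descriptions of these libraries, with no replicate check and no p-value.

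Both lines were derived from postnatal testes of mice on a DBA/2J x C57Bl/6 hybrid background and were grown as germ cell clumps on mouse embryonic fibroblast feeders with growth factors that include GDNF, FGF2, EGF and LIF. The tagged allele encodes NANOS2 with V5, Myc and His epitopes, a protease site and EGFP at its N terminus, so both lines express a tagged protein, from both copies of the gene in TAG/TAG and from 1 copy in TAG/+. No untagged line was part of the comparison. Feeders were depleted before extraction, with Trizol for the TAG/TAG line and QIAzol for the TAG/+ line per the labels, whereas the methods describe sorted SSCs and QIAzol. Genotype, line and extraction reagent differ together and cannot be told apart. Fewer cells of a type and less RNA per cell cannot be told apart either.

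NANOS2 is an RNA-binding protein that keeps male germ cells in the stem cell state. SSC self-renewal in culture depends on GDNF, which signals through the receptor RET and its co-receptor GFRA1 to ERK and AKT and induces transcription factors such as *Bcl6b*, *Etv5*, *Lhx1* and *T*. Spermatogonia in culture also depend on glycolysis for energy, and glycolytic genes are among the classic targets of hypoxia-inducible factors.

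*Nanos2* itself (chr7:18987400-18988962, GRCm38) had 23.8 FPKM in the TAG/TAG line, from 436 reads, and 27.5 FPKM in the TAG/+ line, from 469 reads, a log2 ratio of -0.21 (95% counting interval -0.40 to -0.02). Reads were recovered from the FPKM values, and intervals cover counting error only. *Zbtb16*, the stem cell factor PLZF, was at 102 and 107 FPKM in the same order, *Lin28a* at 96.5 and 117, and *Sall4* at 192 and 214. These 4 markers of undifferentiated spermatogonia were present in both lines and within 2-fold. They do not stand for the whole set of 12 defining markers, of which 11 were in the table. Of the 11, 3 (*Ret*, *Etv5* and *Bcl6b*) were at least 2-fold higher in the TAG/TAG line and 0 lower, with a median log2 ratio of 0.42. Of the 4 defining markers of differentiating spermatogonia, *Sohlh2* had 125 and 173 FPKM (-0.47), above *Zbtb16* in both lines, *Kit* 30.7 and 38.5 (-0.33), *Sohlh1* 10.4 and 16.9 (-0.69) and *Stra8* 6.18 and 8.21 (-0.40). All 4 had lower values in the TAG/TAG line, none by 2-fold, and their sums were 172.5 and 236.9 FPKM. Markers of cells other than germ cells were present too. Summed over the 9 of 10 defining feeder fibroblast markers in the table, the level was 589 FPKM in the TAG/TAG line and 410 in the TAG/+ line, against 1159 and 700.6 for 11 of 12 markers of undifferentiated spermatogonia. For 4 of 5 Sertoli cell markers the sums were 27.1 and 5.89, for 1 of 4 Leydig cell markers 1.20 and 4.62 and for 1 of 4 macrophage markers, *Cd68*, 10.2 and 2.80. The feeder marker sum was thus higher in the TAG/TAG library, as were several gene groups described below. The part of feeders or other cells in those groups was not tested. Of the 4 Sertoli cell markers only *Wt1* reached 5 FPKM, and only in the TAG/TAG line (19.6 and 2.51 FPKM), so nothing is read from their sum.

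Of the 9624 genes, 836 (8.69%) were at least 2-fold higher in the TAG/TAG line and 659 (6.85%) at least 2-fold lower, on the scale log2((FPKM + 0.1)/(FPKM + 0.1)). The direction of a ratio is always TAG/TAG over TAG/+, and a number that follows a pair of FPKM values is this log2 ratio. At 4-fold, 233 genes (2.42%) were higher and 151 (1.57%) lower. Of the higher genes 508 had under 5 FPKM in the TAG/+ line, and of the lower genes 321 had under 5 FPKM in the TAG/TAG line, so these entered the comparison only through the line in which they were high. The median log2 ratio was -0.022. Of the 8863 protein-coding genes, 709 were higher and 437 (4.93%) lower. Processed pseudogenes, which are copies of mature mRNAs and share sequence with their parent genes, were past 2-fold in a larger share, 102 higher and 203 lower of 630, and their values are uncertain for that reason. Calls also depended on the level. Among protein-coding genes with a mean of 100 to 500 FPKM, 25 of 1039 were higher and 27 lower, against 235 and 116 of 1739 between 5 and 10 FPKM. Across genes of at least 100 reads, the counting interval had a median half-width of 0.19 on the log2 scale.

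**Figure D1:**
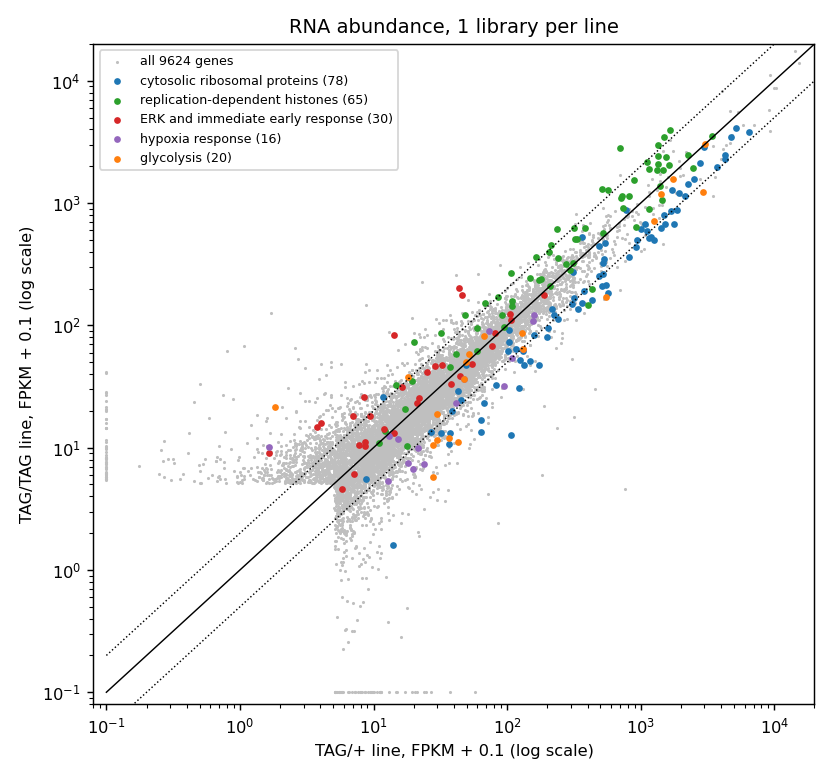
FPKM + 0.1 of 9624 genes in the TAG/+ library (x, log scale) and the TAG/TAG library (y, log scale), with 5 gene lists in colour, a solid line at equal values and dotted lines at 2-fold. Ribosomal protein genes (blue) lie mostly below the solid line and histone genes (green) mostly above it, and the points at the left and lower edges are genes listed at 0 in 1 line.

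Several transcription factors that GDNF induces in SSCs were higher in the TAG/TAG line. *Bcl6b* (chr11:70224128-70229798), a transcriptional repressor needed for SSC maintenance, had 225 FPKM in the TAG/TAG line and 23.1 in the TAG/+ line, a log2 ratio of 3.28 (counting interval 3.13 to 3.44), from 3872 and 370 reads. *Etv4* (chr11:101769742-101785371) had 204 and 43.6 FPKM (2.22) and *Etv5* (chr16:22381309-22439719) 178 and 45.98 FPKM (1.95). Both encode ETS factors downstream of FGF and GDNF. *T*, which encodes brachyury, had 21.2 and 4.81 FPKM (2.12), and *Lhx1*, a homeobox factor, 26.1 and 11.6 FPKM (1.16). The counting intervals of all 5 lay above 0. *Egr3*, an early growth response factor, had the opposite direction within 2-fold, with 4.51 and 5.75 FPKM (-0.34).

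Some feedback inhibitors of ERK signaling were higher as well. *Dusp6*, the ERK phosphatase (chr10:99263231-99267489), had 83.3 FPKM in the TAG/TAG line and 14.2 in the TAG/+ line (2.54, counting interval 2.36 to 2.75). *Spry4* had 14.7 and 3.68 FPKM (1.97) and *Spry1* 17.9 and 6.89 (1.37). Sprouty proteins act between the receptor and RAF. *Spry2*, of the same family, was within 2-fold, at 6.04 and 7.03 FPKM (-0.21), as was the phosphatase gene *Dusp5*, at 38.5 and 44.3 FPKM (-0.20). *Spred1* (0.37) and *Spred2* (0.73), further inhibitors of the pathway, lay above 0 within 2-fold. *Plaur*, the urokinase receptor, had 8.88 and 1.54 FPKM (2.45) and *Arc* 25.7 and 8.34 (1.61). Immediate early genes, which respond to growth factors within minutes, were mostly within 2-fold. *Fos* had 46.6 and 28.8 FPKM (0.69), *Egr1* 48.6 and 54.4 (-0.16), *Jun* 10.3 and 8.54 (0.26) and *Egr4* 125 and 105 (0.25).

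Over the list of ERK and immediate early response genes, 30 of 49 listed genes were members, 8 were at least 2-fold higher in the TAG/TAG line and 0 lower, with a median log2 ratio of 0.32 against -0.022 over all genes. The share higher was 26.7%, against 8.69% of all genes, and 3 of the 8 had under 5 FPKM in the TAG/+ line. The median was 0.21 after each gene was compared with protein-coding genes of like GC content. Of the receptors and relays of GDNF, FGF and LIF, 26 were members, with a median of 0.13. Only *Ret* (chr6:118151745-118197718) passed 2-fold, with 181 FPKM in the TAG/TAG line and 73.2 in the TAG/+ line (1.30, counting interval 1.25 to 1.36). *Gfra1* (chr19:58235604-58455909) was just under 2-fold, with 111 and 56.2 FPKM (0.98). The lowest ratio in this list was that of *Grb2*, an adaptor between receptors and RAS, with 14.04 and 20.1 FPKM (-0.52). *Lifr*, the LIF receptor, had 23.8 and 23.1 FPKM, and *Il6st*, its signaling partner, 58.8 and 58.7. In the PI3K, AKT and mTOR list, 1 of 33 members was higher (3.03%, against 8.69% of all genes), the regulatory subunit *Pik3r1* (5.46 and 0.979 FPKM). The 2 lower members (6.06%, against 6.85%) were the mTORC1 inhibitor *Ddit4* (18.1 and 54.3 FPKM, -1.58) and the RAG GTPase *Rragd* (41.3 and 113 FPKM, -1.44).

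**Figure D2:**
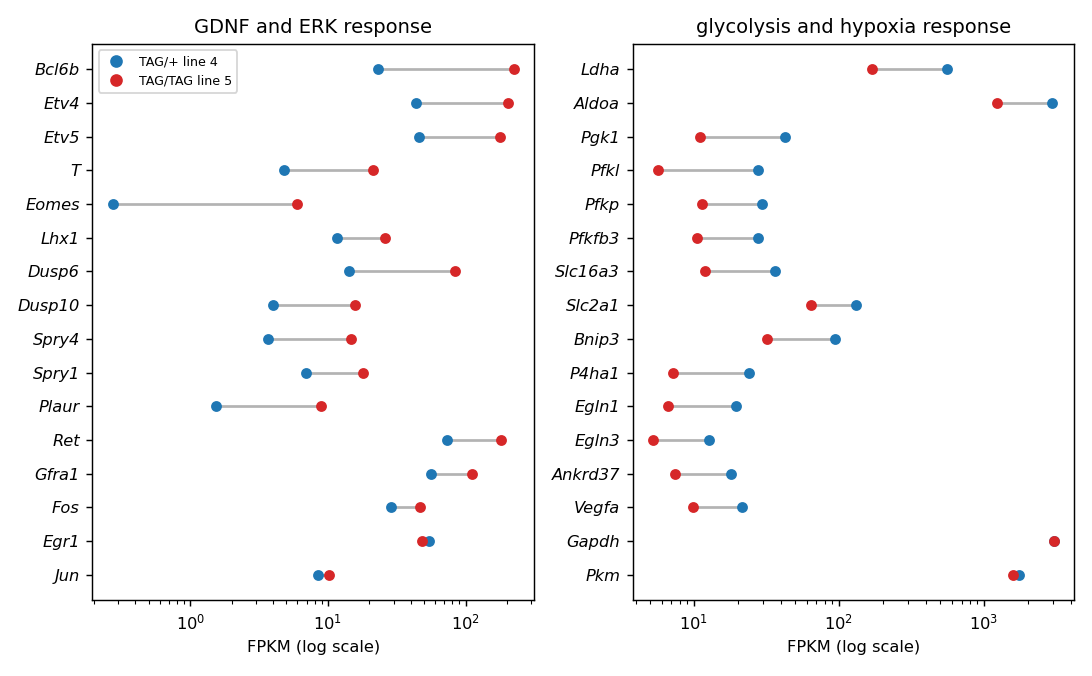
FPKM (x, log scale) of GDNF and ERK response genes (left) and of glycolysis and hypoxia response genes (right) in the TAG/+ line (blue) and the TAG/TAG line (red), 1 library each, with no error bars because there are no replicates. *Bcl6b* stands at 225 in the TAG/TAG line and 23.1 in the TAG/+ line, *Ldha* at 169 and 553, whereas *Egr1*, *Gapdh* and *Pkm* have nearly equal values in both.

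Markers of undifferentiated spermatogonia were split between genes within 2-fold and genes higher in the TAG/TAG line. Of 31 members, 10 were at least 2-fold higher (32.3%, against 8.69% of all genes) and 0 lower, with a median of 0.13. Those not named above were *Eomes* (5.95 and 0.272 FPKM, 188 and 8 reads), a T-box factor of a subset of GFRA1-positive cells, *Neurog3* (8.23 and 0.574 FPKM, 108 and 7 reads), which marks progenitors, *Utf1* (11.5 and 3.88 FPKM), the surface protein *Thy1* (35.2 and 15.7 FPKM) and *Plvap* (10.6 and 2.68 FPKM). Of the 10, 5 (*Eomes*, *Neurog3*, *Plvap*, *Utf1* and *T*) had under 5 FPKM in the TAG/+ line and were members only through the TAG/TAG line. With 5 FPKM required in both lines the median of the list was 0.045. The lowest ratios in the list were those of *Adgra3* (-0.54) and *Nanos3* (-0.47), the NANOS2 paralog.

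Differentiation genes in a wider list lay on both sides of 0. Shares in this paragraph are to be read against 8.69% higher and 6.85% lower of all genes. Of 19 members, 2 (10.5%) were higher and 1 (5.26%) was lower. The higher genes were *Dhrs3* (5.27 and 0.575 FPKM) and *Sall1* (11.6 and 4.06 FPKM). The lower gene was the meiotic cohesin *Rec8* (133 and 267 FPKM, -1.005). The median of the 19 was -0.18, but it was 0.23 with a limit of 1 FPKM or with none. *Dhrs3* and *Sall1* had under 5 FPKM in the TAG/+ line. The 4 defining markers given above had a median of -0.44. Of 25 early meiotic genes, 3 were higher (12%, near the share of all genes) and 0 lower, with a median of 0.092. The 3 were *Rnf212* (16.5 and 1.47 FPKM), *Tex15* (35.1 and 14.5 FPKM) and *Majin* (7.54 and 3.14 FPKM). *Rnf212* and *Majin* had under 5 FPKM in the TAG/+ line and were members only through the TAG/TAG line. In the piRNA pathway 1 of 21 members (4.76%) was lower, the helicase gene *Tdrd9* (1.43 and 7.24 FPKM, -2.26), and 0 were higher. Among 14 pluripotency genes, 3 were higher (21.4%) and 1 was lower (7.14%). The higher genes were *Dppa3* (12.7 and 1.92 FPKM), *Esrrb* (11.7 and 5.49 FPKM) and *Utf1*. *Dppa3* and *Utf1* had under 5 FPKM in the TAG/+ line. *Sox2* (7.33 and 18.00 FPKM) was lower, and *Pou5f1*, which encodes OCT4, had 35.9 and 50.5 FPKM (-0.49).

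Many genes of glycolysis and of the hypoxia response were lower in the TAG/TAG line. *Ldha* (chr7:46841475-46855627), which encodes the lactate dehydrogenase subunit that makes lactate, had 169 FPKM in the TAG/TAG line and 553 in the TAG/+ line, a log2 ratio of -1.71 (counting interval -1.78 to -1.63). *Pgk1* (chrX:106187100-106203699), phosphoglycerate kinase, had 11.00 and 42.5 FPKM (-1.94). The phosphofructokinase genes *Pfkl* (5.69 and 27.7 FPKM, -2.26) and *Pfkp* (11.4 and 29.5 FPKM, -1.37) and their activator *Pfkfb3* (10.5 and 27.7 FPKM, -1.39) were also lower. *Aldoa*, the aldolase gene with the highest level, had 1235 and 2934 FPKM (-1.25). The lactate exporter *Slc16a3* had 11.8 and 36.4 FPKM (-1.61) and the glucose transporter *Slc2a1* 63.8 and 132 (-1.05). Among members within 2-fold, *Eno1*, an enolase gene, had 709.9 and 1249 FPKM (-0.82), the lactate transporter *Slc16a1* 18.8 and 29.6 (-0.66) and *Tpi1*, triosephosphate isomerase, 87.2 and 130.3 (-0.58). *Gapdh* and *Pkm* had nearly equal levels. *Gapdh* had 3048 and 3054 FPKM (-0.0025) and *Pkm* 1578 and 1743 (-0.14). Isozymes with the opposite difference were *Ldhb*, with 21.5 and 1.73 FPKM (3.56, 214 and 16 reads), and *Hk2*, with 37.9 and 17.98 FPKM (1.07). Over the list, 8 of 20 members were at least 2-fold lower (40%, against 6.85% of all genes) and 2 higher (10%, against 8.69%). The median was -0.62, or -0.56 within classes of GC content.

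Hypoxia response genes outside glycolysis were mostly lower as well. *Bnip3* (chr7:138890836-138909519), a mitophagy receptor, had 31.9 FPKM in the TAG/TAG line and 94.7 in the TAG/+ line (-1.57, counting interval -1.77 to -1.37). *P4ha1*, a collagen prolyl hydroxylase subunit, had 7.19 and 23.9 FPKM (-1.72). The prolyl hydroxylases that mark hypoxia-inducible factors for degradation were lower too, *Egln1* with 6.61 and 19.6 FPKM (-1.56) and *Egln3* with 5.22 and 12.7 FPKM (-1.26). *Ankrd37* had 7.39 and 18.00 FPKM (-1.27), the growth factor *Vegfa* 9.90 and 21.4 (-1.10) and *Ero1l*, an oxidase of the endoplasmic reticulum, 53.7 and 109 (-1.02). *Adm*, which encodes adrenomedullin, was higher, with 9.94 and 1.56 FPKM (2.60, 103 and 15 reads). *Ndrg1* also lay above 0, with 90.2 and 72.5 FPKM (0.31), and *P4ha2* was near equal, with 12.4 and 12.9 FPKM (-0.054). Of 16 members, 8 (50%, against 6.85% of all genes) were lower and 1 was higher (6.25%, against 8.69%). The median was -0.92, or -0.77 within classes of GC content. *Slc2a1* is among the 8 and counts in both lists. *Adm* had under 5 FPKM in the TAG/+ line and was a member only through the TAG/TAG line.

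The core of the hypoxia response element, ACGTG, was searched on both strands in the 250 bases before the annotated starts of RefSeq (GRCm38.p6), a motif chosen after the values were seen. It was present for 7 of 7 of the hypoxia response genes that were lower and have a promoter in the table, for 6 of the 8 lower glycolytic genes, and for 26.9% of the 7146 genes of the comparison that have one. It was present in 16.6% of all 32851 promoters. The other core, GCGTG, was present for 6 of the 7, 5 of the 8 and 53.5%, respectively. The lists were drawn from known targets of hypoxia-inducible factors, and a match is a description of these letters and not a site. Windows of 25 bases are shown, 5′ to 3′ on the strand of the gene, for the 11 lower genes with 10 bases on either side of a match, with the match nearest the start in capitals. It reads CACGT where ACGTG lies on the other strand. They are shown to set the motif beside the genes that were lower.
Vegfa (chr17:46025360-46025384, minus strand): agtgcgtgccCACGTcagagagcaa
Bnip3 (chr7:138909599-138909623, minus strand): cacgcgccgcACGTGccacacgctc
Egln1 (chr8:124949308-124949332, minus strand): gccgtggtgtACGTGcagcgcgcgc
Egln3 (chr12:54204089-54204113, minus strand): tgcatctcagACGTGagatccaggt
P4ha1 (chr10:59323270-59323294, plus strand): tgacagagcgCACGTagcgagggct
Slc2a1 (chr4:119108699-119108723, plus strand): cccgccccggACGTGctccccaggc
Aldoa (chr7:126799366-126799390, minus strand): tggctcgagtCACGTcctagcgggg
Pgk1 (chrX:106186959-106186983, plus strand): atggaagtagCACGTctcactagtc
Ldha (chr7:46845760-46845784, plus strand): tgggttcccgCACGTccgctgggct
Slc16a3 (chr11:120949030-120949054, plus strand): ggcagcggtgACGTGcgcgggggac
Pfkfb3 (chr2:11502128-11502152, minus strand): ccttctctccACGTGaaagggggct

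Motifs of other signaling pathways were searched in the same 250 bases. TGACGTCA was present for 3.20% of the genes of the comparison with a promoter, TGACGCAA for 1.12%, TGATGCAA for 0.532%, TCACCCCAC for 0.602%, the interferon-stimulated response element for 2.91% and the CArG box of serum response factor for 0.028%. Among the 23 ERK response genes with a promoter in the table, TGACGTCA and the interferon-stimulated response element were present for 2 each and the other 4 motifs for 0. None of these matches was in the 5 genes past 2-fold.

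Cytosolic ribosomal protein genes were mostly lower in the TAG/TAG line and had the lowest median of the lists described. Of 78 members, 35 (44.9%, against 6.85% of all genes) were at least 2-fold lower and 1 was higher, 75 had a ratio below 0, and the median was -0.94. Their summed level was 45906 FPKM in the TAG/TAG line and 75827 in the TAG/+ line. The lowest ratios were those of *Rpl36al* (1.498 and 13.97 FPKM, -3.14), *Rps13* (12.6 and 107 FPKM, -3.07), *Rpl36a* (13.4 and 63.2 FPKM, -2.23) and *Rpl39* (30.8 and 123 FPKM, -1.99). The members with the highest ratios were *Rpl32l* (1.12) and *Rps4l* (0.55), which are copies of other ribosomal protein genes, and *Rpsa* (884 and 779.5 FPKM, 0.18). *Rplp0*, which encodes a stalk protein of the large subunit, had 2879 and 2999 FPKM (-0.059), nearly equal values. Most of these genes have near-identical processed pseudogenes, and reads shared between them make single values uncertain. The pseudogenes themselves had the same direction, with 31 of 73 lower (42.5%), 5 higher and a median of -0.81. This list was added after the values were seen. Of the 31, 19 had under 5 FPKM in the TAG/TAG line, and 4 of the 5 had under 5 FPKM in the TAG/+ line. Of all processed pseudogenes 32.2% were lower, with a median of -0.45. Because reads are shared with the parent genes, the direction of the pseudogenes is not separate from theirs.

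Ribosomal protein mRNAs are short, and the ratio also varied with length. The shortest eighth of protein-coding genes, with a mean transcript length of up to 922 bases, had a median of -0.12, or -0.077 without ribosomal protein genes, and the longest eighth 0.057. Compared with genes of like length, ribosomal protein genes had a median of -0.85. Other complexes of small proteins differed less. The nuclear genes of oxidative phosphorylation had a median of -0.35, with 3 higher (4.29%) and 3 lower (4.29%) of 70. Mitochondrial ribosomal protein genes had -0.24, with 1 (1.43%) and 4 (5.71%) of 70, and proteasome genes -0.21, with 1 (2.56%) and 3 (7.69%) of 39. These shares are to be read against 8.69% higher and 6.85% lower of all genes. *Cox7a1*, a subunit of cytochrome c oxidase, had the lowest ratio of the nuclear respiratory genes, with 4.46 and 30.5 FPKM (-2.74), and *Ndufa1*, a subunit of complex I, the highest, with 5.08 and 0.875 FPKM from 25 and 4 reads (2.41, counting interval 1.004 to 4.52).

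Replication-dependent histone genes, whose mRNAs are made in S phase and carry no poly(A) tail, were mostly higher in the TAG/TAG line. Of 65 members, 16 were at least 2-fold higher (24.6%, against 8.69% of all genes), 2 lower and 54 above 0, with a median of 0.58. Summed, they had 59343 FPKM in the TAG/TAG line and 40643 in the TAG/+ line. *Hist2h3b* had the highest ratio, with 2829 and 698 FPKM (2.02), followed by *Hist1h3f* (72.96 and 20.1 FPKM, 1.85), *Hist1h2ae* (86.4 and 31.8 FPKM, 1.44) and *Hist1h3e* (1315 and 514 FPKM, 1.36). The testis-specific *Hist1h2ba* was lower (146 and 402 FPKM, -1.46), as was *Hist1h4n* (199.5 and 434 FPKM, -1.12). Histone genes are near-identical copies, so reads may be split between them, while the sum over the family depends less on that split. Their transcripts are rich in GC, with a median of 57.9%, and the median ratio was 0.45 within classes of GC content. Other genes of S phase were close to equal, with a median of 0.21 and 0 of 27 past 2-fold, and mitosis genes had a median of 0.088 and 0 of 27.

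Several Notch signaling genes were higher in the TAG/TAG line. Notch receptors are activated by ligands on neighbouring cells and induce genes of the HES and HEY families. *Notch1* had 134 FPKM in the TAG/TAG line and 61.3 in the TAG/+ line (1.12). The targets *Hey1* (47.05 and 16.7 FPKM, 1.49), *Heyl* (5.08 and 0.944 FPKM, 2.31), *Hes5* (12.4 and 5.42 FPKM, 1.18) and *Nrarp* (11.7 and 5.36 FPKM, 1.11) and the glycosyltransferase *Lfng* (14.7 and 4.71 FPKM, 1.63) were also higher. *Hes1* was within 2-fold, with 97.6 and 66.4 FPKM (0.55), as were the glycosyltransferase *Mfng* (-0.67), the ligand *Jag2* (-0.25) and the transcription factor *Rbpj* (-0.24). Of 14 members, 6 were higher (42.9%, against 8.69% of all genes) and 0 lower. *Heyl* and *Lfng* had under 5 FPKM in the TAG/+ line. The median was 0.73, or 0.51 within classes of GC content and 0.38 with 5 FPKM required in both lines.

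Genes of cell contact and of the cytoskeleton were also higher in part. Of 17 integrin and adhesion genes, 5 were higher (29.4%, against 8.69% of all genes) and 0 lower, with a median of 0.78. Of the 5, 1 had under 5 FPKM in the TAG/+ line. *Itga9* (5.89 and 1.40 FPKM), *Itga3* (15.7 and 5.06 FPKM) and the tetraspanin *Cd82* (17.96 and 5.70 FPKM) had the highest ratios, whereas *Itga6*, the integrin used to enrich SSCs, had 50.2 and 47.8 FPKM (0.072). Of 28 keratin and cytoskeleton genes, 12 were higher (42.9%, against 8.69% of all genes) and 2 lower (7.14%, against 6.85%). Of the 12, 3 had under 5 FPKM in the TAG/+ line, and the 2 lower genes had under 5 FPKM in the TAG/TAG line. The median of the 28 genes was 0.58. It was 1.03 with a limit of 1 FPKM and 0.50 with 5 FPKM required in both lines. The higher genes included *Vim*, *Nes*, which encodes nestin (13.2 and 6.45 FPKM), *Krt19* (12.3 and 5.88 FPKM) and *Tuba1a*, an alpha-tubulin gene (45.03 and 21.7 FPKM), and the neuronal beta-tubulin gene *Tubb3* was lower (3.802 and 8.18 FPKM, -1.09). Laminin, collagen and basement membrane genes had 4 higher (18.2%, against 8.69% of all genes) and 0 lower of 22. Of the 4, 3 had under 5 FPKM in the TAG/+ line. The median of these 22 genes was 0.51, or 0.30 within classes of GC content. *Nid1*, which encodes the basement membrane protein nidogen, had 87.9 and 40.3 FPKM (1.12).

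Markers of feeder fibroblasts were higher beside these groups. Of 40 markers in a wider list 23 were members, with a median of 0.59. Of these, 6 were at least 2-fold higher in the TAG/TAG line (26.1%, against 8.69% of all genes) and 0 lower. Of the 6, 2 had under 5 FPKM in the TAG/+ line. Summed over these members, the level was 938 FPKM in the TAG/TAG line and 630.4 in the TAG/+ line. *Col1a1* had 43.9 and 24.97 FPKM (0.81), *Col1a2* 13.5 and 9.17 (0.55) and *Col3a1* 6.79 and 7.10 (-0.064), all less than 2-fold apart. *Pdgfrb* (6.75 and 0.660 FPKM, 3.17), *Timp1* (69.8 and 17.2 FPKM, 2.01), *Vim* (67.9 and 30.3 FPKM, 1.16) and *Sparc* (158 and 73.9 FPKM, 1.09) differed by more. The part of feeder RNA in the adhesion, basement membrane, cytoskeleton and Notch differences was not tested.

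Genes known from Sertoli cells were higher in part. *Trf*, which encodes transferrin (chr9:103204001-103230444), had 126 FPKM in the TAG/TAG line and 1.62 in the TAG/+ line, from 1590 and 19 reads (6.20). *Espn*, an actin-bundling protein gene (45.8 and 4.74 FPKM), *Wt1* (19.6 and 2.51 FPKM) and *Clu* (14.2 and 3.92 FPKM) were also higher. Other defining markers stayed below the limit of 5 FPKM in both lines, with 4.49 and 2.19 FPKM for *Sox9*, 2.35 and 0.643 for *Gata4* and 0.592 and 0.539 for *Cldn11*. Of 20 listed Sertoli cell markers 6 were members, with 4 higher and 1 lower. The lower one was *Ctsl*, above the limit in both lines (12.7 and 29.0 FPKM, -1.18, 240 and 509 reads). *Tjp1* was within 2-fold (238 and 152 FPKM, 0.65). All 4 higher markers had under 5 FPKM in the TAG/+ line, so the limit let them in only through the line where they were high, and nothing is read from their number. The part of other testis cells in these values was not tested.

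**Figure D3:**
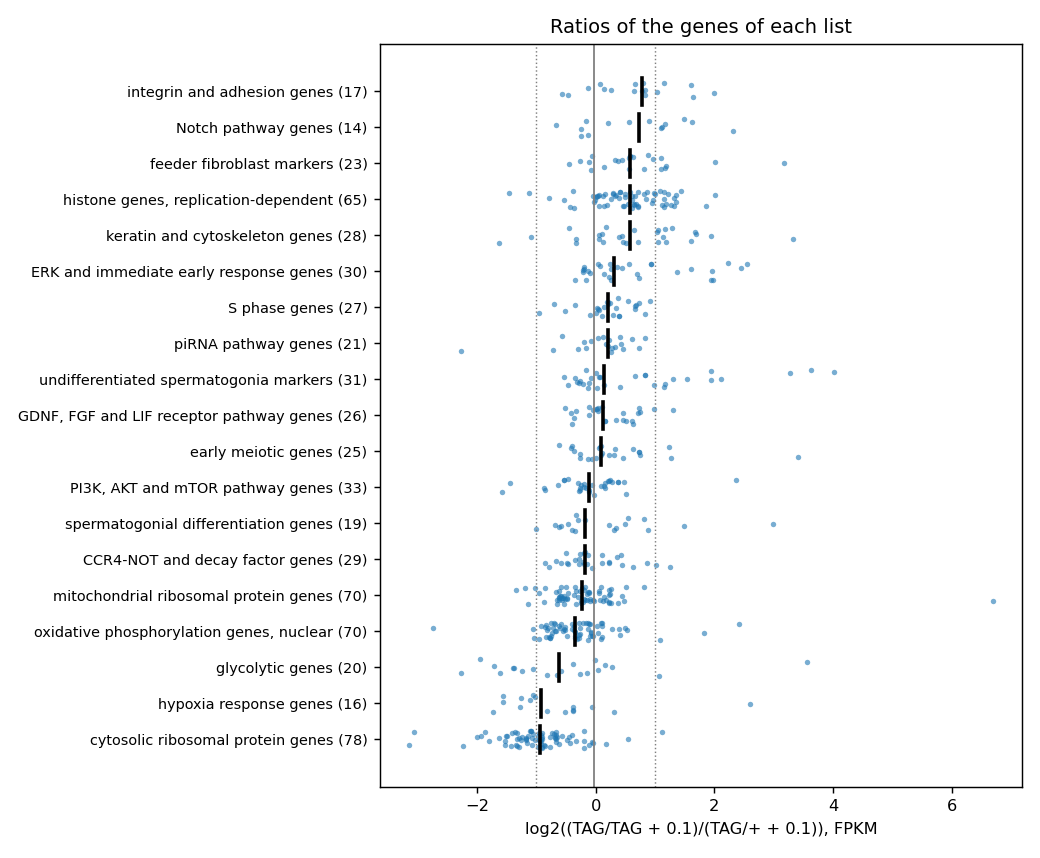
Log2 FPKM ratio (x, TAG/TAG over TAG/+) of each member gene (points, spread at random in height within a row) in 19 gene lists, with the number of members after each name, the median of each list as a black bar, the median of all 9624 genes as a grey line and 2-fold as dotted lines. Ribosomal protein, hypoxia response and glycolytic genes lie furthest to the left and adhesion and Notch genes furthest to the right, and the far point among mitochondrial ribosomal protein genes is the pseudogene *Mrps36-ps1*, listed at 0 in the TAG/+ line.

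Hox genes, the homeobox factors of the body axis, differed by cluster. *Hoxa13* had 0.226 FPKM in the TAG/TAG line, from 3 reads, and 6.09 in the TAG/+ line, from 75 reads (-4.25, counting interval -7.06 to -3.15). *Hoxa11* (0.505 and 5.69 FPKM, -3.26), *Hoxa10* (0.757 and 8.63 FPKM, -3.35), *Hoxa9* (0.908 and 5.50 FPKM, -2.47) and *Hoxa7* (5.74 and 20.3 FPKM, -1.81) were lower too. These 5 genes lie side by side on chromosome 6, and *Hoxa3*, further along the cluster, was within 2-fold (6.96 and 4.87 FPKM, 0.51). In the Hoxb cluster, *Hoxb6* had 78.5 and 49.3 FPKM (0.67) and *Hoxb13* 41.3 and 30.2 (0.45), and *Hoxb1* alone passed 2-fold (5.29 and 2.24 FPKM, 1.20). *Hoxc9* was higher (5.66 and 0.853 FPKM, 2.60).

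**Figure D4:**
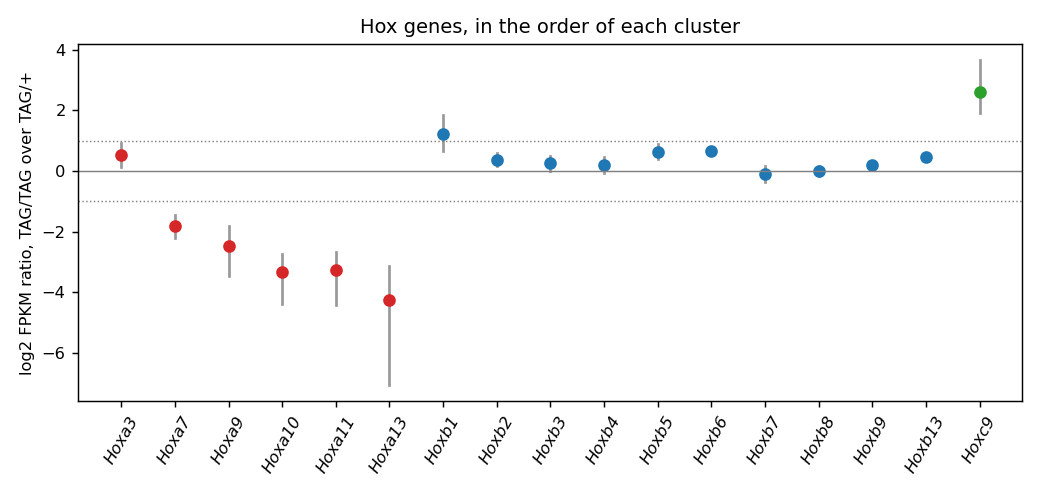
Log2 FPKM ratio (y, TAG/TAG over TAG/+) of Hox genes, from *Hoxa3* onwards, in the order of their numbers within the Hoxa (red), Hoxb (blue) and Hoxc (green) clusters, with 95% counting intervals as grey lines and 2-fold as dotted lines. *Hoxa7* to *Hoxa13* lie between -1.81 and -4.25, while all Hoxb genes but *Hoxb1* lie within 2-fold.

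Imprinted genes were mostly within 2-fold, with 3 higher (11.5%, against 8.69% of all genes) and 1 lower (3.85%, against 6.85%) of 26. *Plagl1* had 53.2 FPKM in the TAG/TAG line and 2.62 in the TAG/+ line (4.29), *Mest* 88.8 and 13.05 (2.76) and *Dlk1* 48.2 and 8.75 (2.45). These are read from the paternal copy in somatic tissue. *Igf2*, also a paternally read gene, had 118 and 178 FPKM (-0.60), *Peg3* 18.97 and 25.2 (-0.41) and the maternally read *Cdkn1c* 18.2 and 22.9 (-0.33). The lower gene was *Ube3a* (9.65 and 19.9 FPKM, -1.04).

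Among genes of at least 50 FPKM in either line, the protein-coding genes with the highest ratios included *Trf*, *Plagl1*, the lysosomal protease gene *Tpp1* (148 and 8.76 FPKM, 4.06), *Bcl6b* and *Mest*. At the other end stood *mt-Nd3*, a subunit of complex I encoded by mitochondrial DNA (17.9 and 314 FPKM, -4.13), and *Rps13*. The other mitochondrially encoded genes ranged from *mt-Co2* (217 and 408 FPKM, -0.91) to *mt-Cytb* (8321 and 4082 FPKM, 1.03). *mt-Nd3* lay outside the range of the other 12. Of the 20 genes at either end 12 were not protein-coding, for example *Gm13394* (4.52 and 762 FPKM) and *Rps3a2* (61.2 and 0.694 FPKM).

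The 10 highest ratios of all 9624 genes belonged to genes listed at 0 in the TAG/+ line, of which 8 were not protein-coding, and 9 of the 10 lowest to genes listed at 0 in the TAG/TAG line. In all, 100 genes were at 0 in 1 line, 20 of them protein-coding. *Ky* (chr9:102505750-102546239), which encodes a muscle peptidase, had 1053 reads and 28.6 FPKM in the TAG/TAG line against 0 reads, at least 326-fold higher against a floor of 3 reads. *Srp54b* had 327 reads against 0, while its close paralogs *Srp54a* (2.58 and 7.04 FPKM) and *Srp54c* (5.66 and 10.3 FPKM) were lower in the TAG/TAG line, and the values of these near-identical genes are uncertain. *Rsc1a1* (chr4:141683851-141685599) had 0 reads in the TAG/TAG line and 325 in the TAG/+ line. It lies within *Ddi2* (chr4:141677549-141723419) on the same strand, and *Ddi2* had 24.7 and 22.2 FPKM. Half-lives from the study's labeling experiment were listed in both lines for 3 of the 100 genes, *Rsc1a1*, *Gm15091* and *S100a11*, also in the line whose FPKM was 0. For *Rsc1a1* they were 153 and 143 min, against 154 and 143 min for *Ddi2*.

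After protein-coding genes were limited to at least 100 reads over both libraries, a rule added after the values were seen, *Esrp1*, an epithelial splicing regulator (23.6 and 0.354 FPKM, 788 and 11 reads), *Sfn*, a 14-3-3 protein gene (11.2 and 0.170 FPKM, 212 and 3 reads, counting interval 4.47 to 8.33), *Pde2a* (164 and 0 reads) and *Nobox* (101 and 0 reads) were also among the 20 highest. *Slc15a2*, a peptide transporter (0.444 and 8.20 FPKM), *Styxl1* (0.594 and 8.95 FPKM) and *Acat3* (0.462 and 6.18 FPKM) were among the 20 lowest. Adjacent protein-coding members that both passed 4-fold in the same direction made 7 of 8837 neighbouring pairs, and these were *Hoxa9* to *Hoxa13* (3 pairs), *Tnfrsf25* and *Espn*, *Arhgef5* and *Nobox*, *B9d2* and *Tgfb1*, and *Nol3* and *Exoc3l*. *Tnfrsf25* (10.1 and 0.591 FPKM) lies 212 bases from *Espn*, and *B9d2* (11.97 and 1.25 FPKM) 444 bases from *Tgfb1* (26.9 and 4.67 FPKM).

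Other classes of regulators held few genes past 2-fold, in shares to be read against 8.69% higher and 6.85% lower of all genes. Of 14 BMP, TGF-beta and Wnt response genes, 3 were higher (21.4%), 2 of them with under 5 FPKM in the TAG/+ line, and 0 lower, with a median of 0.28. These were *Tgfb1*, the BMP target *Id1* (8.38 and 2.45 FPKM, 1.73) and the Wnt target *Sp5* (13.3 and 6.20 FPKM, 1.09). Of 13 DNA methylation and TET genes 1 (7.69%) was higher, *Zfp57*, which protects imprints (22.97 and 7.67 FPKM, 1.57). Of 25 Polycomb genes 1 (4%) was lower, *Suz12*, a core subunit of PRC2 (7.68 and 15.5 FPKM, 165 and 309 reads). X-linked germline gene families had 1 higher (3.03%) and 4 lower (12.1%) of 33, with a median of -0.38. *Usp26*, a deubiquitinase gene, had 22.4 and 46.5 FPKM (-1.05), *Fthl17b*, a ferritin-like gene with near-identical copies, 0 and 69 reads, and *Mageb16* 5.81 and 1.90 FPKM (1.57).

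The study lists 500 transcripts by their NANOS2 binding signal divided by the mean FPKM of these same libraries, so this list is not independent of the values compared here. Of these 408 were members, 6 were at least 2-fold higher in the TAG/TAG line (1.47%, against 8.69% of all genes) and 32 lower (7.84%, near the 6.85% of all genes), with a median of -0.21 against -0.022 for all members. Their transcripts were poorer in GC, with a median of 44.7% against 50.8%, and within classes of GC content the median was -0.046. The shares depend on GC as well. In the class of 43.5% to 46.2% GC, 3.25% of protein-coding genes were higher and 5.15% lower. The CCR4-NOT deadenylase, the complex that NANOS2 binds, and other decay factors had a median of -0.18. Of these 29 genes, 2 were higher (6.90%, against 8.69% of all genes) and 0 lower. The 2 were *Tob1* (18.9 and 7.89 FPKM) and *Cnot8* (15.3 and 7.46 FPKM). *Cnot1*, the scaffold of the complex, had 189.9 and 264 FPKM (-0.48).

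RNA level depends on synthesis and decay, and half-lives measured by metabolic labeling in both lines were set beside the abundance ratios. They were deposited as 1 value per transcript and line, with no error, and their line was taken from the name of each set. Half-lives were listed for 4792 of the 9624 genes. Of genes at least 2-fold higher in abundance, 206 had one (24.6%), with a median of 202 min in the TAG/TAG line and 194 min in the TAG/+ line and a median log2 half-life ratio of 0.050. Genes at least 2-fold lower had medians of 282 and 269 min and a log2 half-life ratio of 0.073 (161 genes), and genes within 2-fold had medians of 231 and 230.0 min and 0.037 (4425 genes). Half-life medians were longest for the lower genes in both lines, and the half-life ratios of the 3 groups lay close together. Across the 4792 genes, which are not independent replicates and share the libraries, Spearman's rho between the abundance ratio and the half-life ratio was 0.0076. *Etv4* had half-lives of 276 and 176 min in the same order, *Etv5* 259 and 236, *Ret* 243 and 259 and *Dusp6* 93.4 and 129. *Ret* and *Dusp6* were thus more abundant in the line in which their half-life was shorter.

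The abundance ratio varied with base composition. In 8 classes of GC content, the median log2 ratio of protein-coding genes went from -0.23 in the class of lowest GC (up to 43.5%) to 0.26 in the highest (above 57.6%). The share at least 2-fold higher went from 2.62% to 15.3%, and the share at least 2-fold lower from 7.67% to 3.79%. Across the 8863 genes Spearman's rho between the ratio and GC content was 0.288, and between the ratio and transcript length it was 0.079. Extraction reagent and library differ with the line, and their part in this trend cannot be told apart from that of the cells.

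**Figure D5:**
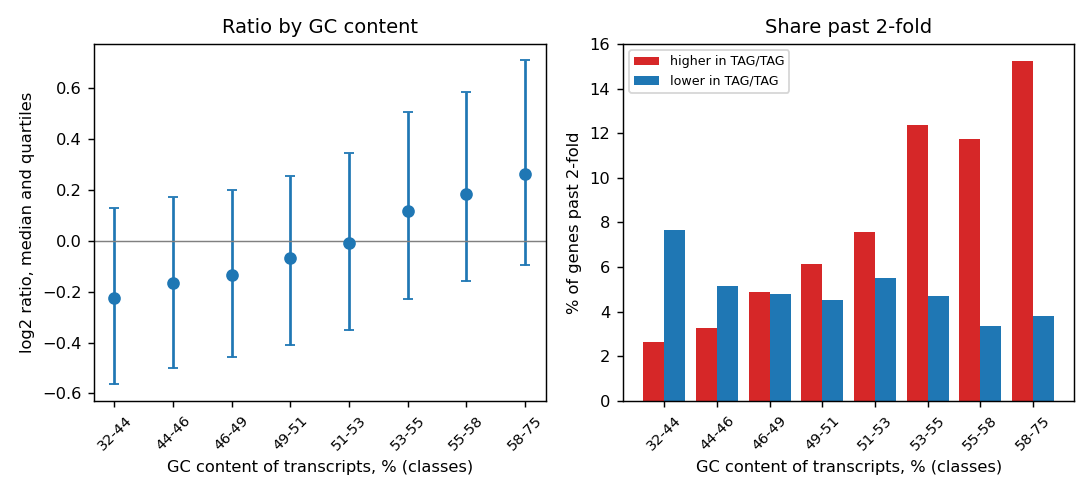
Left, median log2 FPKM ratio (TAG/TAG over TAG/+, with quartiles as bars) of protein-coding genes in 8 classes of GC content of their transcripts. Right, the share of genes of each class (in %, axis from 0) at least 2-fold higher (red) or lower (blue) in the TAG/TAG line, which runs from 2.62% to 15.3% for higher genes and from 7.67% to 3.79% for lower genes.

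By chromosome, the median log2 ratio of protein-coding genes ranged from -0.11 to 0.18 over 20 chromosomes. Chromosome 6 had the highest median, with 60 of 459 genes higher and 14 lower, and the next was at 0.096. Within classes of GC content the median of chromosome 6 was 0.22 and the next was at 0.18. Genes within 3 Mb of *Nanos2* on chromosome 7, the site of the tagged allele, had a median of 0.22, and of 0.013 within classes of GC content. Of these 56 genes, 7 were higher (12.5%) and 5 lower (8.93%).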

How the data were processed

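RNA-seq of ribosomal RNA-depleted total RNA was analysed from 1 TAG/TAG library and 1 TAG/+ library, in single-end reads. The authors deposited FPKM values for 13904 genes, and the submitters' processing notes name kallisto and DESeq2 without versions. The authors also deposited half-lives in minutes (another unit), fitted to metabolic labeling. Binding libraries were not analysed here. Some genes are not reported here.

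Multiplying FPKM by the mean length of a gene's transcripts (GENCODE M21, GRCm38) and the depth gave whole reads, within 0.01, for 99.9% of 13892 genes with a length. FPKM was scaled to 11738620 reads (TAG/TAG) and 10908790 reads (TAG/+), and the reads summed to 11658220 and 10972933. Genes of at least 5 FPKM in either line were kept, and log2 ratios used a pseudocount of 0.1. Counting intervals are exact (Clopper-Pearson, 95%). With 1 library per line no test was run and count models were not fitted. The strand setting of the counting is not given in the sources used here.

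The genes, gene lists and named-gene rules were chosen with earlier results of these data known. Named were the 10 highest and lowest ratios of all members and of genes of at least 50 FPKM, the 4 highest and lowest of each list described, fixed markers and the most abundant genes of a list. Genes outside this rule were chosen for their roles after their values were seen. Of 45 lists with at least 5 members, 32 had a median within 0.3 of 0. Ratios centred within classes of GC content or length, the protein-coding subset and the motifs ACGTG and GCGTG were added after seeing the data. On libraries simulated with Poisson counting error alone, 200 of 200 genes made 4-fold different and 7 of 8964 unchanged genes passed 2-fold. The 200 were drawn among genes with a mean of at least 10 FPKM. Differences between lines, libraries or reagents were not simulated, so these numbers give no rate of false calls for the real libraries. Python 3.11.15, numpy 2.4.6, pandas and scipy were used.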

Additional observations from a re-analysis of the deposited data

How the results depend on the processing

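No paired analysis was possible because each line has 1 library, and for the same reason no replicate could be left out. A median is called moved below when it shifted by more than the median counting error of its genes. The number of genes higher and lower, 836 and 659, followed the set of genes counted: 1697 and 1210 with a limit of 1 FPKM, 1883 and 1334 with no limit, and 328 and 338 with 5 FPKM in both lines. With a limit of 10 FPKM 490 were higher, and 437 protein-coding genes were lower (added after seeing the data). Median ratios of lists moved in part. Notch genes had 0.53 with a limit of 1 FPKM, 0.38 with 5 FPKM in both lines and 0.51 with GC-centred ratios. Histone genes had 0.66 with equal FPKM sums, 0.45 with GC-centred and 0.70 with length-centred ratios, and ribosomal protein genes -0.85 with length-centred ratios. Cytoskeleton genes had 1.03 with a limit of 1 FPKM and 1.02 without a limit. Differentiation genes turned from -0.18 to 0.23 with a limit of 1 FPKM or none, and were at -0.33 with 5 FPKM in both lines. Other limits count other genes, and for the other settings the cause was not tested. Of 148 alternative values of counts and list medians, 128 were labelled as staying, as were all 184 of chromosome medians and half-life ratios. The bounds were wide. For chromosomes they were 0.17 to 0.23, against medians of -0.11 to 0.18, so staying says little there. The median of the NANOS2-bound list counted as staying when it went from -0.21 to -0.046 with GC-centred ratios. Among counts, 973 higher genes with equal FPKM sums also counted as staying. Scaling to equal FPKM sums moved the median of all genes by 0.079 and the share of calls that were higher from 55.9% to 63.0%. Depth limits genes of few reads: 364 members had under 100 reads over both libraries.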

Other observations

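Stress and metabolic lists outside the comparisons above were mostly close to 0. Shares in this paragraph are to be read against 8.69% higher and 6.85% lower of all genes. Amino acid starvation response genes had a median log2 ratio of 0.17. Of 25 members, 2 (8%) were at least 2-fold higher in the TAG/TAG line, *Asns*, asparagine synthetase (83.1 and 28.7 FPKM, 1.53), and *Atf5* (9.06 and 2.92 FPKM, 1.60). Another 2 (8%) were lower, *Ddit4* and *Slc1a4* (3.06 and 6.25 FPKM). Cholesterol synthesis genes had a median of 0.15, with 0 higher and 0 lower of 19. Heat shock genes had a median of -0.28. Of 14 members, 1 (7.14%) was higher, the small heat shock protein gene *Hspb1* (16.5 and 2.70 FPKM, 2.57), and 0 lower. *Hsp90ab1*, the most abundant of them, had 2755 and 4159 FPKM (-0.59). Of 18 interferon response genes, 2 (11.1%) were higher, *Ifitm3* (24.00 and 2.97 FPKM, 2.97) and *Ifi35*, both with under 5 FPKM in the TAG/+ line. Only *Oasl2* (50.7 and 114 FPKM, -1.17) was lower (5.56%). The unfolded protein response list had a median of 0.072.

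Regulators of the cell cycle did not share a direction. *Ccnd1*, the cyclin that growth factors induce, had 25.2 FPKM in the TAG/TAG line and 61.9 in the TAG/+ line (-1.29), lower in the line in which *Etv4* and *Dusp6* were higher, and the inhibitor *Cdkn1b* had 9.72 and 21.8 FPKM (-1.16). *Cdk6* was higher (5.88 and 1.61 FPKM, 1.80). The chemokine *Cxcl12* (5.24 and 0.352 FPKM, 208 and 13 reads) and its receptor *Cxcr4* (10.2 and 1.49 FPKM, 162 and 22 reads), which act in SSC homing, were both higher in the TAG/TAG line, and they were named after their values were seen.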
